A study of Gallus gallus with 2 samples.

Results

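The 7 subunits of respiratory complex I that are encoded in the mitochondrial genome (ND1, ND2, ND3, ND4, ND4L, ND5 and ND6) were described in hearts of chicken embryos exposed to an oxidant and of embryos given saline. The genes were chosen by symbol, and all 7 had a value among 13011 named genes, each as 1 transcript. All 7 were above the filter of a mean of 1 FPKM. The control library came from hearts of embryos that received saline. The AAPH library came from hearts of embryos that received 2,2-azobis(2-amidinopropane) dihydrochloride, a compound that decomposes into free radicals, as injections of 2.6 µmol in 100 µL into the air chamber, first at Hamburger-Hamilton stage 35 and then on alternate days up to day 10. Eggs were kept at 38 °C and 70% humidity, and hearts were collected at stage 37 (day 11) from the embryos that survived. The labels give no strain, sex or number of hearts per library, nor the volume of saline. Each group had 1 library, so no difference below has a replicate check, and no test, standard deviation or p-value was computed.

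Complex I (NADH:ubiquinone oxidoreductase) takes electrons from NADH, passes them to ubiquinone and pumps protons across the inner mitochondrial membrane. It is the entry point of the respiratory chain for much of the fuel oxidised by heart muscle and one of the sites where the chain forms superoxide. The mitochondrially encoded subunits build the core of its membrane arm, while the core of the arm that binds NADH and carries the iron-sulfur clusters comes from nuclear genes. The mitochondrial genome is transcribed as long precursors from both strands, and the messages are cut out at the tRNAs between them. ND6 is the 1 subunit read from the light strand, and all the others are read from the heavy strand. ND4L and ND4 overlap and are carried on 1 message.

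Levels are given in FPKM, which divides the fragments of a transcript by its length and by the depth of the library. Comparison of different genes by FPKM has limits here. ND4L and ND4, carried on 1 message, were at 7239 and 11994 FPKM with saline. The overlapping genes ATP8 and ATP6 were at 86941 and 39590. Ranks, shares and orders of level below are in FPKM. Summed over the file, FPKM came to 1248089 with saline and 1042407 with AAPH. The number of fragments is unknown. A single fragment stood for 1.05 times as much FPKM with AAPH as with saline, as read from 781 genes at low levels. Markers of cardiomyocytes (8 of 10 with a value) summed to 41592 FPKM with saline and 36172 with AAPH. Red cell markers (5 of 8 with a value, all haemoglobins) summed to 3427 and 2275. Fibroblast and epicardial markers (6 of 7) summed to 960 and 864, endothelial markers (5 of 5) to 110 and 117, smooth muscle markers (2 of 4) to 42.4 and 42.3, and liver markers (4 of 4) to 157 and 73.5. The value was lower with AAPH for 6 of 8 cardiomyocyte, 5 of 5 red cell and 4 of 6 fibroblast and epicardial markers. It was lower for 1 of 5 endothelial, 1 of 2 smooth muscle and 3 of 4 liver markers. Of the 10106 genes with a mean of 1 FPKM or more, 49.5% were lower with AAPH. Of the 122 with a mean of 1000 FPKM or more, 93.4% were lower. These sums and counts are as deposited and were not rescaled, and the file total was lower with AAPH too. No marker of these lists with a value was at 0 in either library. The part of these differences in the results below was not tested, and in whole hearts fewer cells of a type and less RNA per cell cannot be told apart.

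The complex I messages of the mitochondrial genome were lower in the AAPH library for every subunit as deposited, and ND3 and ND6 were lower by more than the others. Ratios differed between overlapping genes too. ND4L and ND4, carried on 1 message, had log2 ratios of −0.22 and −0.35, and ATP8 and ATP6 had −0.19 and −0.45. How far ratios spread without a difference between messages was not measured. Summed over the 7 subunits, the level was 75158 FPKM with saline and 56125 with AAPH, a log2 ratio of −0.42. The sum made up 6.02% of all FPKM with saline and 5.38% with AAPH. A ratio of 1.5-fold (log2 0.585) or more, in either direction, was used as the threshold. By this measure 2 of the 7 subunits (28.6%) were lower and 0 higher, beside 3.93% of all 10106 tested genes lower and 2.73% higher. Among the 122 genes with a mean of 1000 FPKM or more, to which all members belong, 22.1% were lower and 0.82% higher. The members' share thus lay near that of this abundant set, which includes them. The median log2 ratio was −0.35 over the 7 subunits, −0.45 over the 122 abundant genes and 0.0039 over all tested genes. These ratios depend on scaling. With each library rescaled to the same total (TPM), the median of all tested genes moved by 0.23, to 0.23. The median of the subunits was then −0.09, ND4L lay above 0, and 0 subunits were past 1.5-fold, beside 1.6% of all tested genes lower and 8.4% higher. With libraries scaled to their sum without mitochondrial-genome and haemoglobin genes, 0 subunits were past 1.5-fold too, beside 1.83% of genes lower and 8.53% higher. With libraries centred by the median of the gene ratios, 2 subunits were lower, beside 402 of all 10106 tested genes lower and 271 higher. The subunits are themselves part of the total that TPM divides by.

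**Figure D1:**
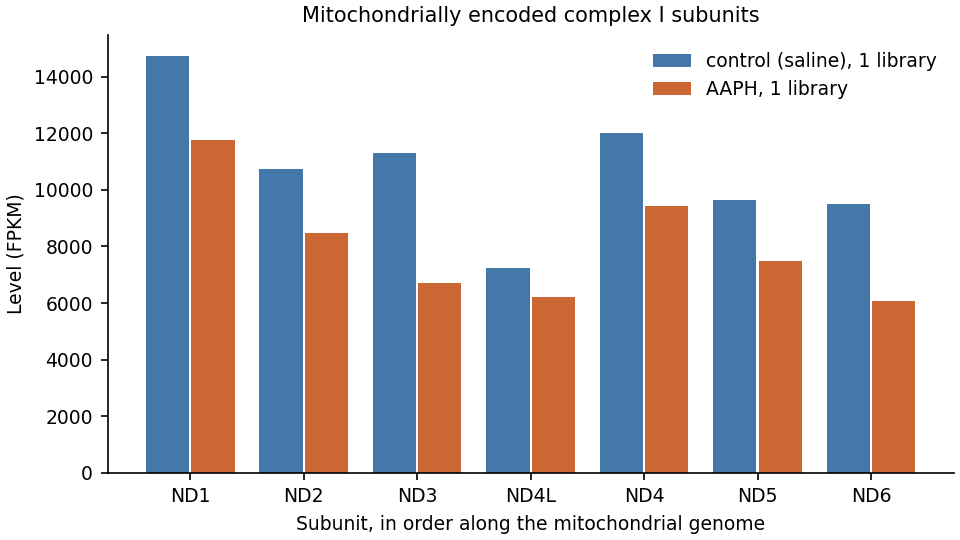
Level in FPKM of each mitochondrially encoded complex I subunit in the control library (blue) and the AAPH library (orange), 1 library per group, with no error bars because there are no replicates. Every subunit is lower in the AAPH library as deposited; ND1 is highest in both libraries, at 14743 and 11744 FPKM, and ND3 has the widest gap, at 11311 and 6718 FPKM.

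More of the subunits lie in the proximal than in the distal membrane arm. Those of the proximal arm, next to the junction with the hydrophilic arm, held both the smallest and the largest differences. ND1 lies at this junction and forms part of the ubiquinone binding site. Its level was 14743 FPKM with saline and 11744 with AAPH (log2 ratio −0.33). ND1 had the highest FPKM of the subunits in both libraries and ranked 8 of all named genes in each. ND2, one of the subunits related to bacterial sodium/proton antiporters, had a level of 10747 FPKM with saline and 8462 with AAPH (−0.34). ND2 ranked 14 and 13, so its place among the named genes hardly moved.

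ND3 is a short subunit with a loop at the entrance to the quinone site, which in mammals changes its exposure when the enzyme passes between its active and deactive forms. Its level was 11311 FPKM with saline and 6718 with AAPH, a log2 ratio of −0.75 and a drop of 4593 FPKM. This was the lowest ratio of the family, and 24.1% of the difference in the summed level came from ND3. Its rank went from 13 to 17. Among the 122 abundant genes, 4 had a log2 ratio at or below that of ND3, ND3 itself included. After rescaling to TPM the log2 ratio of ND3 was −0.49, within 1.5-fold.

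ND6, the subunit of the light strand, was at 9483 FPKM with saline and 6059 with AAPH (log2 ratio −0.65, and −0.39 after rescaling to TPM). It ranked 16 and 19. The labels do not say whether counting used strand, so reads of ND6 and of heavy-strand RNA antisense to it cannot be told apart. Among the 122 abundant genes, 17 had a log2 ratio at or below that of ND6, itself included, so its ratio was less unusual than that of ND3. ND4L, the smallest subunit, was on the other side of the family. Its level was 7239 FPKM with saline and 6217 with AAPH, a log2 ratio of −0.22 as deposited and 0.04 after rescaling to TPM. ND4L ranked 18 in both libraries. It was the lowest of the subunits in the control library, while ND6 was the lowest in the AAPH library.

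The subunits of the distal membrane arm, ND4 and ND5, which are also related to antiporters and carry proton channels, had nearly equal ratios. The ratios of ND1 and ND2 in the proximal arm, −0.33 and −0.34, were close to them. ND4 was at 11994 FPKM with saline and 9437 with AAPH (log2 ratio −0.35), ranking 11 in both. ND5, at the tip of the arm, was at 9641 and 7488 FPKM (−0.36), ranking 15 in both. Together they made up 28.8% of the summed level with saline and 30.2% with AAPH.

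The shares of the subunits in their own sum do not depend on how a library is scaled. ND1 held 19.6% of the sum with saline and 20.9% with AAPH, ND4 16.0% and 16.8%, and ND2 14.3% and 15.1%. ND5 held 12.8% and 13.3%, and ND4L 9.63% and 11.1%. All 5 of these shares of the 7-subunit sum were larger in the AAPH library, by 0.51 to 1.45 percentage points; since shares of 1 sum add up to the whole, they move with the shares of ND3 and ND6. As shares of the 12 named mitochondrial protein genes, ND4L was still larger with AAPH (2.37% and 2.55%), but ND1 (4.82% in both), ND2 (3.52% and 3.47%), ND4 (3.92% and 3.87%) and ND5 (3.15% and 3.07%) were equal or smaller. ND3 held 15.0% with saline and 11.97% with AAPH, a difference of −3.08 percentage points, and ND6 12.6% and 10.8%, a difference of −1.82 points. ND3 and ND6 together held 27.7% and 22.8%. The order of levels in the control library was ND1, ND4, ND3, ND2, ND5, ND6 and ND4L. In the AAPH library it was ND1, ND4, ND2, ND5, ND3, ND4L and ND6. Without replicates it is not known which neighbours in these orders differ beyond the spread between hearts.

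**Figure D2:**
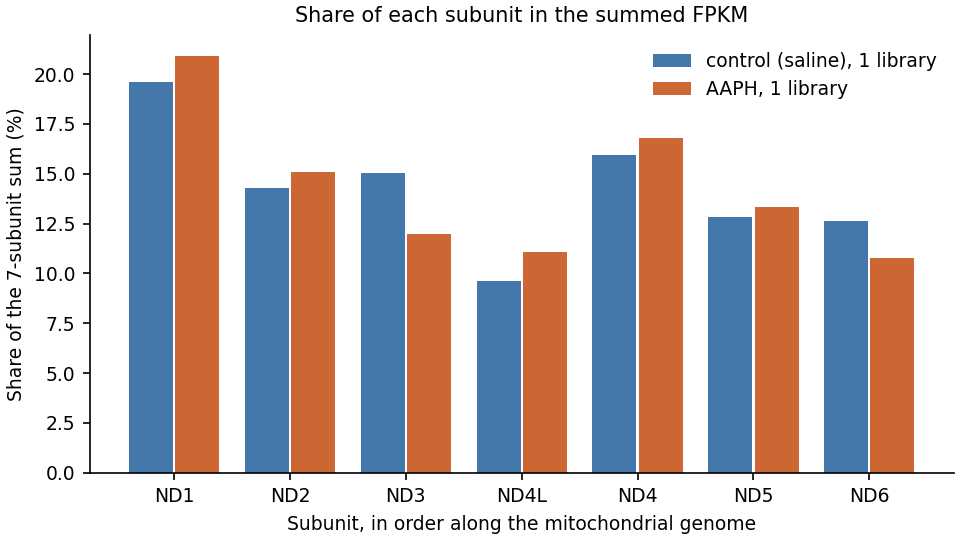
Share of each subunit in the summed FPKM of the 7 subunits, in percent, in the control library (blue) and the AAPH library (orange), 1 library per group. The bars of ND3 drop from 15.0% to 11.97% and those of ND6 from 12.6% to 10.8%, while the other 5 shares are larger in the AAPH library.

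Among the 7 subunits, ND1, ND2, ND4 and ND5 kept their proportions to each other between the libraries. These 4 have the longer coding regions of the 7. This grouping by length was made after the values were seen, so its narrow range comes in part from the choice and does not test length. ND1, ND2, ND4 and ND5 had log2 ratios between −0.36 and −0.33, a range of 0.04, and in each of their 6 pairs the proportion of one to the other differed by at most 1.03-fold between the libraries. The level of ND2 relative to ND4 was 0.896 with saline and 0.897 with AAPH. The 3 shorter genes, ND3, ND4L and ND6, had log2 ratios between −0.75 and −0.22, a range of 0.53. The 5 other named mitochondrial protein genes, not grouped by length, lay between −0.45 and −0.19, a range of 0.26. Of all 21 pairs, 10 differed by less than 1.1-fold between the libraries and 10 by 1.2-fold or more. Each of the latter 10 contained ND3 or ND6. The largest difference was between ND3 and ND4L, which are neighbours on the mitochondrial genome with a tRNA between them: ND3 was at 1.56 times the level of ND4L with saline and 1.08 times with AAPH. ND3 and ND6 themselves stood at a proportion of 1.19 and 1.11. ND4L and ND4, which share a message and a locus in the deposited files, stood at 0.604 and 0.659. Reads from their overlap may be assigned to either gene. The part of transcript length in these differences was not tested.

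The heavy-strand subunits, summed over 6 genes, were at 65675 FPKM with saline and 50066 with AAPH (log2 ratio −0.39). ND6 of the light strand amounted to 14.4% of this sum with saline and 12.1% with AAPH. ND3 of the heavy strand had a lower ratio than ND6. ND6 is the only light-strand subunit, and its reads cannot be told apart from heavy-strand RNA antisense to it. The part of the strand in these ratios was therefore not tested.

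Among the other protein genes of the mitochondrial genome, 5 were found by name, and their ratios overlapped those of the complex I subunits. COX1, the catalytic subunit of cytochrome c oxidase, was at 41784 FPKM with saline and 35717 with AAPH (log2 ratio −0.23), and COX3 of the same complex at 40926 and 30024 (−0.45). The ATP synthase subunit genes ATP6, at 39590 and 29050 FPKM (−0.45), and ATP8, at 86941 and 76429 (−0.19), overlap each other. Cytochrome b of complex III (cytb) was at 21347 and 16498 FPKM (−0.37). None of the 5 was past 1.5-fold, beside 22.1% of the 122 abundant genes lower and 0.82% higher. Their summed level was 230588 FPKM with saline and 187718 with AAPH (log2 ratio −0.30). The complex I subunits thus had the lower FPKM among the 12 named genes, all below cytb. They made up 24.6% of the summed FPKM of the 12 with saline and 23.0% with AAPH. Without ND3 and ND6, the remaining complex I subunits had a log2 ratio of −0.33.

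Along the heavy strand the ratios showed no steady trend. ND1 and ND2, at the start of the order, lay at −0.33 and −0.34, and ND4, ND5 and cytb, near its end, between −0.37 and −0.35. ND3, with the lowest ratio, has COX3 (−0.45) before it and ND4L (−0.22) after it. After rescaling to TPM, COX1 (0.03), ATP8 (0.07) and ND4L (0.04) lay above 0 and the other 9 genes below.

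**Figure D3:**
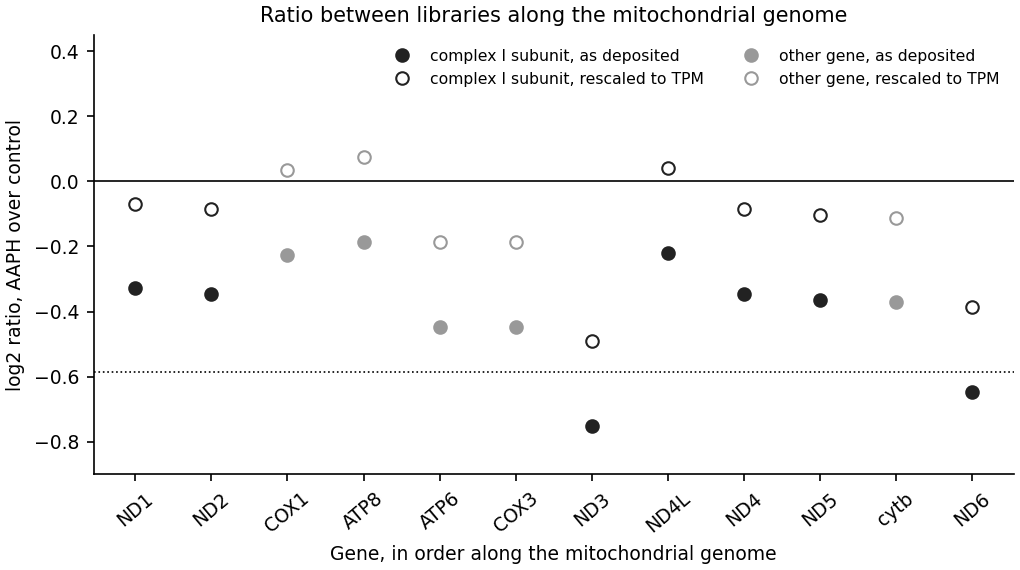
The log2 ratio (AAPH over control, pseudocount 1) of the 12 named protein genes, in their order along the mitochondrial genome, with complex I subunits in black and other genes in grey; filled points are as deposited and open points rescaled to TPM, and the dotted line marks 1.5-fold lower. ND3 and ND6 are the points below the dotted line as deposited, and no open point reaches it.

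The nuclear genes of complex I had far lower FPKM than the mitochondrial ones in both libraries. None was past 1.5-fold as deposited, beside 3.93% of all tested genes lower and 2.73% higher. The median level was 10747 FPKM over the mitochondrial subunits and 300 over the 6 nuclear core subunits with a value in the control library, a proportion of 35.8. In the AAPH library the medians were 7488 and 233, a proportion of 32.1. The lowest mitochondrial subunit had 7.42 times the FPKM of NDUFB1, the highest nuclear one, in the control library, and 7.19 times in the AAPH library.

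Of 37 nuclear subunits listed, 27 had a value. Their median log2 ratio was −0.25, with 22 ratios below 0 and 5 above, beside 49.5% of all tested genes below 0. Abundant genes were more often below 0, at 93.4% of the 122 with a mean of 1000 FPKM or more. The nuclear subunits had a median of 293 FPKM with saline, and the part of abundance in their ratios was not tested. Among the core subunits, NDUFV1, which binds NADH and FMN, was at 320 and 246 FPKM (−0.38), and its partner NDUFV2 at 107 and 94.2 (−0.18). The iron-sulfur subunit NDUFS8 was at 280 and 220 FPKM (−0.35), NDUFS3 at 450 and 370 (−0.28) and NDUFS7 at 486 and 430 (−0.18). NDUFS1, which carries several iron-sulfur clusters, was the 1 core subunit with a higher value in the AAPH library, at 151 and 173 FPKM (0.20).

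The accessory subunits, which surround and stabilise the core, reached farther in both directions. The lowest ratios were those of NDUFB4 (843 and 593 FPKM, −0.51), NDUFA1 (438 and 312, −0.49), NDUFC2 (338 and 246, −0.46) and NDUFA2 (293 and 214, −0.45). The highest were those of NDUFS4 (33.4 and 47.2 FPKM, 0.49), which lies on the Z chromosome in the RefSeq gene table and in mice is needed for a stable NADH-binding module, NDUFB6 (245 and 340, 0.47), NDUFA9 (152 and 170, 0.16) and NDUFA10 (168 and 171, 0.02). The sex of the embryos is not given, and its part in the ratios of Z-linked genes was not tested. After rescaling to TPM the nuclear median was 0.01, with 14 of 27 ratios above 0, beside a median of 0.23 over all tested genes. NDUFS4 and NDUFB6 were then past 1.5-fold, beside 8.4% of all tested genes that were 1.5-fold or more higher on that scale.

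Assembly factors, which build complex I and are not part of the finished enzyme, had a median log2 ratio of −0.12 over the 12 of 18 with a value, and 0 were past 1.5-fold, beside 3.93% of all tested genes lower and 2.73% higher. After rescaling to TPM the median was 0.13, with 9 of 12 ratios above 0, and still below the 0.23 of all tested genes. FOXRED1 was at 25.5 and 17.5 FPKM (−0.52), TIMMDC1, which helps to assemble the membrane arm around ND1, at 63.3 and 46.7 (−0.43), and NDUFAF5, listed under its older name C20ORF7, at 21.1 and 17.4 (−0.26). At the other end lay NDUFAF2 (3.08 and 3.53 FPKM, 0.15), which is also on Z in the RefSeq gene table, NUBPL, which delivers iron-sulfur clusters (11.98 and 13.3, 0.14), and NDUFAF4 (9.68 and 10.6, 0.12).

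Genes that transcribe, process and maintain mitochondrial RNA and DNA lay closer to the median of all genes. Of 35 listed, 26 had a value that passed the filter, and the median log2 ratio was −0.07. With the pseudocount of 1, 0 were past 1.5-fold, beside 3.93% of all tested genes lower and 2.73% higher. With a pseudocount of 0.1, 2 of the 26 were higher, beside 505 of all 10106 tested genes. The lowest were MTERF3 (49.7 and 36.0 FPKM, −0.46), a repressor of mitochondrial transcription in mammals, FASTKD5, an RNA processing factor (5.88 and 4.28, −0.38), and SSBP1, the mitochondrial single-stranded DNA binding protein (110 and 86.9, −0.34). The highest were the coactivator PPARGC1B (1.2 and 2.19 FPKM, 0.54), FASTKD3 (2.24 and 3.43, 0.45) and FASTKD1 (4.09 and 5.07, 0.25). FASTKD3 and FASTKD1 belong to the same RNA-binding family as FASTKD5. The log2(FPKM + 1) scale understates ratios at levels this low. After rescaling to TPM, PPARGC1B and FASTKD3 were past 1.5-fold (2 of 26 genes, beside 8.4% of all tested genes) and the median was 0.17, beside 0.23 over all tested genes.

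**Figure D4:**
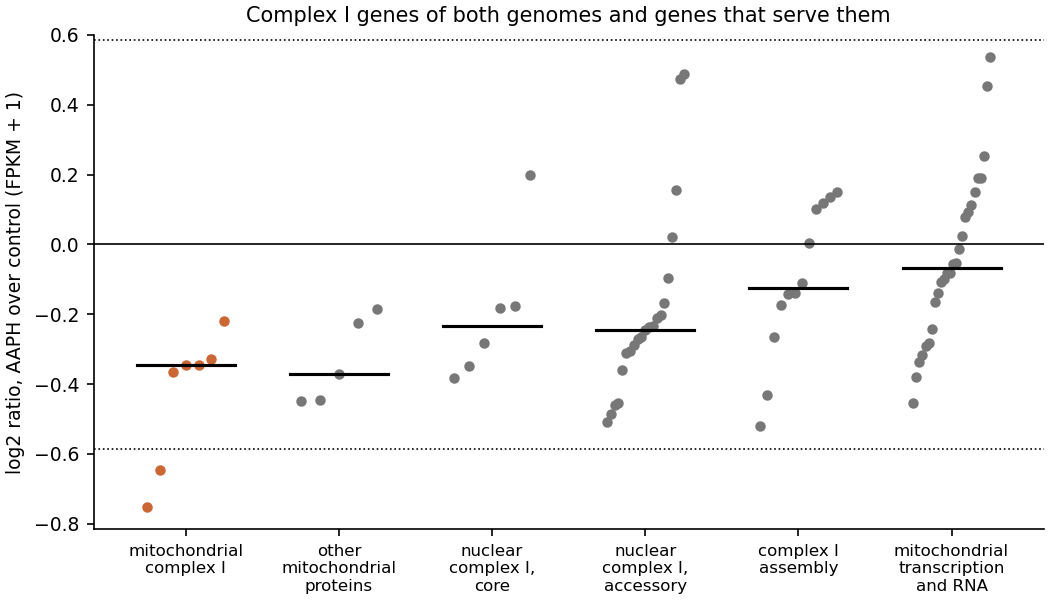
The log2 ratio (AAPH over control, FPKM + 1) of each gene in 6 lists, as deposited, with the mitochondrially encoded complex I subunits in orange, the other lists in grey, black bars at the medians and dotted lines at 1.5-fold either way. ND3 and ND6 are the 2 points beyond the lower line; the medians run from −0.37 for the other mitochondrial protein genes to −0.07 for transcription and RNA genes.

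The genes outside the 12 named mitochondrial protein genes with a mean of 1000 FPKM or more were compared over the 2 libraries. Those whose ratio lay nearest to that of the summed subunits are given here. They were the haemoglobin gene HBG2, at 2267 FPKM with saline and 1695 with AAPH (log2 ratio −0.42), the glycolytic enzyme GAPDH, at 11628 and 8653 (−0.43), and COX4I1, a nuclear subunit of cytochrome c oxidase, at 1728 and 1280 (−0.43). The others of the 5 nearest have an Ensembl identifier alone. Of the 110 abundant genes outside the 12 named ones, 92.7% had a log2 ratio below 0 as deposited. The unassigned entry Cu, described below, is among the 110. Their median log2 ratio was −0.46, so a ratio like that of the summed subunits was common among abundant messages.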

How the data were processed

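The submitters' processing notes name Cuffdiff, Cufflinks 2.2.1, TopHat2 2.1.1 and bcl2fastq; build and annotation: not given in the sources used here. Both deposited files hold FPKM, with 1 value for each assembled transcript, per the file headers. Transcripts of 1 gene name were summed here; 1968 of 27335 transcripts had no name and were left out of gene comparisons. Log2 ratios are log2((AAPH FPKM + 1)/(control FPKM + 1)), which understates changes of low genes. Genes with a mean of 1 FPKM or more were tested against the 1.5-fold threshold. The genes and lists were chosen with earlier results of these data known. Apart from the members, the other mitochondrial genes and the nuclear core, the text names the 4 (accessory) or 3 highest and lowest genes of each list and the 5 nearest in ratio. Symbols, synonyms and gene order come from a RefSeq table (GRCg7b). COX2 was not found by name. The relative worth of a fragment was read from 1-transcript genes at 0.05 to 0.3 control FPKM, of which 88.0% had ratios of whole numbers up to 10 within a relative tolerance of 0.0002. Alternatives were 3 scalings, 2 pseudocounts, 2 filters, the top transcript alone and other denominators for shares. Python 3.11.15, numpy 2.4.6, pandas 2.3.3 and matplotlib 3.10.9 were used, and the calls were tested on simulated data.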

Additional observations from a re-analysis of the deposited data

How the results depend on the processing

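With 1 library per group, replicate error was not measured. No paired analysis was possible because each group has 1 library, and no library could be left out. The share of fragments (FPKM times coding length) was not run, since no protein lengths were used here. A change under 0.1 (log2) in a ratio or median, or under 1.5 times in a count, was taken as no change. Rescaling moved the median gene, by 0.23 to TPM and by 0.22 when scaled without mitochondrial-genome and haemoglobin genes. Each rescaling divides a library by 1 number, so the shift differed between genes only through the pseudocount of 1. Rescaled to TPM, and in the second scaling, log2 ratios were −0.068 and −0.090 for ND1, −0.085 and −0.11 for ND2, −0.49 and −0.51 for ND3, 0.040 and 0.018 for ND4L, −0.086 and −0.11 for ND4, −0.10 and −0.13 for ND5, −0.39 and −0.41 for ND6 and −0.16 and −0.18 for the sum. The direction of ND4L thus turned under both. Members lower at 1.5-fold numbered 0 under both, in place of 2, beside 1.6% and 1.83% of all tested genes. Medians were 0.013 and −0.0094 for nuclear complex I subunits, 0.13 and 0.11 for assembly factors and 0.17 and 0.15 for transcription and RNA genes. Under both, 2 nuclear subunits and 2 transcription and RNA genes were higher, as were 2 of the latter with a pseudocount of 0.1. As shares of the whole file, the log2 changes were −0.068 for ND1, −0.085 for ND2, −0.49 for ND3, 0.040 for ND4L, −0.086 for ND4, −0.10 for ND5 and −0.39 for ND6; the shares of ND1, ND2, ND4 and ND5, larger within the 7 subunits, thus turned. These whole-file changes repeat the TPM ratios, apart from the pseudocount. Against the 12 named mitochondrial genes every share moved by the same log2 amount, which was under 0.1. The shares of ND1, ND2, ND4 and ND5 also turned there, to −0.0018, −0.018, −0.019 and −0.038. Of all tested genes, 79 were lower and 36 higher at 2-fold and 397 and 276 at 1.5-fold. These counts were 36, 80, 162 and 849 after TPM, 43, 96, 185 and 862 in the second scaling, 25, 8, 161 and 56 with a pseudocount of 5, and 52, 14, 246 and 134 at a mean of 5 FPKM or more. With a pseudocount of 0.1, 162 were lower and 106 higher at 2-fold and 505 higher at 1.5-fold. Centring by the median of ratios moved no ratio, median or count past these limits. Neither did the top transcript alone, run for the members and their shares, or no filter, run for the lists and all genes (95 lower and 51 higher at 2-fold, 494 and 348 at 1.5-fold).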

Other observations

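One more abundant entry of the deposited files is listed under the short name Cu, between COX1 and ATP8 in the order of the files. It was at 40899 FPKM with saline and 28429 with AAPH, a log2 ratio of −0.52 (−0.26 after rescaling to TPM). No source used here pairs this name with a gene. It was left out of the sums over named mitochondrial genes. It is part of the file totals and so of the TPM scaling. It also stayed in the scaling without mitochondrial-genome and haemoglobin genes, and among the 122 and 110 abundant genes.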
